A study of Mus musculus with 15 samples.

Results

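The Ier genes carry the name immediate early response, which is given to genes that are transcribed within minutes of a stimulus without new protein synthesis. The family was taken as Ier2, Ier3, Ier5 and Ier5l, and its members were found as every probe set to which the array annotation gives 1 of these symbols and no other. This gave 5 probe sets of 3 genes, out of 29131 probe sets with 1 symbol that stand for 15964 genes. Ier2 has 1 probe set, on chip type A, Ier3 has 1 on A and 1 on C, and Ier5l has 1 on B and 1 on C. No probe set carries the symbol Ier5 in the annotation used, so Ier5 was not analysed here. The group was picked because Ier5l read far above both mock and anti-TCR when CSA or PKCi was present, unlike Ier2 and Ier3. The genes were thus selected on their values under mock, anti-TCR, CSA and PKCi, which are given as a description, with no test.

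All RNA came from 1 mouse clone of CD4 T cells of the helper type, A.E7. Mock cells were the unstimulated reference, and all other cells were stimulated with anti-TCR, an antibody against the T cell receptor. Anti-TCR was given alone (titled Anergic), with CSA (cyclosporin A, which blocks the phosphatase calcineurin and so keeps NFAT factors out of the nucleus), with a PKC inhibitor that the labels do not name (PKCi), or with rapamycin, PD98059 and SB203580 together (Combo, which blocks mTOR, MEK and p38). For each of the 5 treatments RNA from 2, 4 and 6 h was pooled and hybridised to 3 chip types with different probe sets, 15 arrays in all. Each treatment was read by a single array of each chip type. No value therefore has a replicate error, no difference could be tested, and precision is limited by this number of arrays. In pooled RNA a change in every cell and a change in the number of responding cells, or at 1 of the times, cannot be told apart. No pool received an inhibitor without anti-TCR. An effect of a drug by itself therefore cannot be told apart from its effect on the response to anti-TCR.

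In T cells, engagement of the receptor activates calcineurin, protein kinase C and the MAP kinases, and immediate early genes are among the first targets of all of these routes. Ier2 (also known as Pip92), Ier5 and Ier5l encode related proteins with a conserved N-terminal region. Ier3 (also known as IEX-1 or gly96) shares the name but not the sequence; its product modulates apoptosis and ERK signalling, and the gene is a known NF-kB target. Ier5 is known for its link with the heat shock factor Hsf1 and the phosphatase PP2A. Ier5l is the least studied of the 4.

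In RefSeq's annotation of the GRCm38.p6 build Ier2 lies on chromosome 8 (84661331 to 84662852), Ier3 on chromosome 17 (35821713 to 35822911), Ier5 on chromosome 1 (155096367 to 155099636) and Ier5l on chromosome 2 (30472631 to 30474199). The 250 bases before the annotated starts of Ier3 and Ier5l are shown, from RefSeq on the same build, because these genes moved in opposite directions with CSA. The Ier3 stretch is chr17:35821463-35821712 on the plus strand and the Ier5l stretch is chr2:30474200-30474449 on the minus strand. Capitals mark matches, on either strand, to 1 of 8 motifs: TGACG (a core of the cyclic AMP response element), TGANTCA (the AP-1 site), GGAAA (the NFAT core), CCAAT (the CCAAT box), GAANNTTC (the heat shock element core), TATAA (the TATA element), the CArG box and the NF-kB site.
Ier3: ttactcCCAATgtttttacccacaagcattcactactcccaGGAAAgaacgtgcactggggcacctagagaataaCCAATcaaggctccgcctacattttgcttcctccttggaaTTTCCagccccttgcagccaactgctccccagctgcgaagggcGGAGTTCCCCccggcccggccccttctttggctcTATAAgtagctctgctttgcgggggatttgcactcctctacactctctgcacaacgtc
Ier5l: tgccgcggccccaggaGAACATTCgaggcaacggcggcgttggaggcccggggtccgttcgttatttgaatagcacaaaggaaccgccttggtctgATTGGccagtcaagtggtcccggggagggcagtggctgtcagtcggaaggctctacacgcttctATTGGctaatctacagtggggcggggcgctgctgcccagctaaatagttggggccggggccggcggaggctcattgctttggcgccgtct

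The Ier3 stretch holds 2 matches to GGAAA, 2 to CCAAT, 1 to the NF-kB site and 1 to TATAA, and the matches do not overlap. The Ier5l stretch holds 2 matches to CCAAT and 1 to GAANNTTC, a pattern that any match meets on both strands. Among 32851 promoter stretches of the same length in that table, 55.6% hold GGAAA, 33.8% CCAAT, 22.8% TATAA, 7.25% the NF-kB site, 6.69% GAANNTTC, 17.8% TGACG, 6.75% TGANTCA and 1.47% the CArG box. A match is a description of the letters only. Neither stretch holds the cyclic AMP response core, the AP-1 site or the CArG box, which says only that these letters are not in the 250 bases shown.

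Values are array intensities. The floor of a chip type is the median of all its values (51.1 on A, 69.5 on B and 55 on C), which replaced every lower value before ratios were computed. A gene counts as measured in a comparison when the brighter value reaches 4 times the floor, and as risen or fallen when the values are also at least 2-fold apart. That level was reached by 17.4% to 22.95% of the probe sets on each array. Of the 9 CD4 T cell markers looked up, 7 of the 8 on the arrays were bright on at least 1 array. Cd4 read between 598 and 879.6, and Cd247 was bright only with anti-TCR alone (209). Those of CD8 T and NK cells (3 on the arrays), B cells (4) and erythroid cells (1) were not bright on any array. Of the 6 macrophage and dendritic cell markers Cd14 (203 to 293) was bright in every pool but Combo. Of the 3 stromal markers Col1a2 (439 to 554) and, with anti-TCR alone, Col1a1 (244) were bright. The summed level of the macrophage and dendritic cell list was 371 with anti-TCR, 445 with CSA and 291 with PKCi, and that of the stromal list 808, 685 and 545; their part in the results was not tested.

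Ier2 read 427 with mock, 2989.7 with anti-TCR, 2763 with CSA, 1218 with PKCi and 1701 with Combo on its chip type A probe set. Mock was the lowest and all 4 stimulated pools lay above it. Ier3 read 407 with mock, 3532 with anti-TCR, 752 with CSA, 481 with PKCi and 2408 with Combo on its chip type A probe set. Its high pools were anti-TCR and Combo. Its PKCi pool lay near mock, and its CSA pool was 1.85-fold above mock. The other Ier3 probe set, on chip type C, read 78.2, 65.6, 42.4, 55.8 and 4.1 in the same order of treatments. It reached 4 times the floor on 0 arrays, carries the suffix that marks an incomplete probe design, and is not used for Ier3 ratios.

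Ier5l was high with CSA and PKCi, and low with mock as Ier3 was. Its chip type C probe set read 338 with mock, 264.5 with anti-TCR, 5812 with CSA, 3103 with PKCi and 412 with Combo. Its chip type B probe set read 623 with mock, 485 with anti-TCR, 5103 with CSA, 1693 with PKCi and 685 with Combo. The order of the 5 treatments was the same on both: CSA highest, then PKCi, then Combo, mock and anti-TCR. With CSA, Ier5l ranked 10 among the 12411 probe sets of chip type B and 30 among the 11868 of chip type C, against 1158 and 2105 with anti-TCR alone. Levels of different probe sets cannot be set against each other, so none of these values says that 1 Ier gene is more abundant than another.

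**Figure D1:**
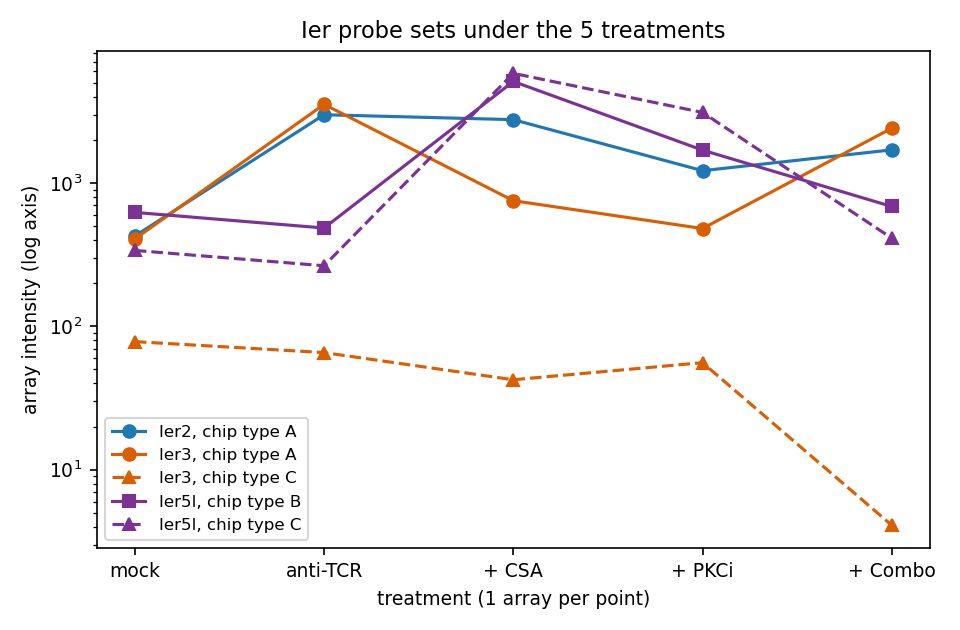
Array intensity (log axis) of the 5 Ier probe sets under each of the 5 treatments, 1 array per point; colours are genes, and circles, squares and triangles are chip types A, B and C. Ier2 and Ier3 on chip type A rise from 427 and 407 with mock to 2989.7 and 3532 with anti-TCR, while both Ier5l probe sets peak with CSA, at 5103 and 5812.

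Anti-TCR alone against mock asks what engagement of the receptor does to each gene. Ier2 rose 7.01-fold (log2 ratio 2.81) and Ier3 8.68-fold (log2 ratio 3.12), while Ier5l lay slightly lower (log2 ratio -0.36 on both of its probe sets) and did not pass the size rule. So 2 of the 3 genes rose, against 11.4% of the 5803 genes measured. Of those 5803, 99 genes had a higher ratio than Ier2 and 71 a higher one than Ier3, and the median log2 ratio of all was -0.08. A technical spread was computed from genes that have bright probe sets on more than 1 chip type, as the SD of the differences between their log2 ratios over the square root of 2, and was 0.76 here. The rises of Ier2 and Ier3 were 3.72 and 4.13 times this spread and the Ier5l difference 0.47 times; the spread covers arrays and probes and not cultures.

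CSA was added to anti-TCR to ask which levels differ when calcineurin is inhibited. The 3 genes went 3 ways. Ier2 was level (2763 against 2989.7, log2 ratio -0.11), Ier3 fell 4.70-fold (log2 ratio -2.23) and Ier5l rose 22.0-fold on chip type C (log2 ratio 4.46) and 10.5-fold on B (log2 ratio 3.40). Of 5453 genes measured, 4.84% rose and 5.34% fell. No other gene had a higher ratio than Ier5l on chip type C and 1 did on B, and 65 had a lower one than Ier3. The Ier2 and Ier3 ratios differed by 2.12 on the log2 scale. Between probe sets of 1 gene on different chip types the SD of a difference was 0.68. Ier2 and Ier3 were read on the same arrays, so this SD is only a rough guide to their difference. This comparison had the smallest technical spread of the 7, at 0.48.

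Set against mock, the CSA pool was 6.48-fold higher for Ier2 (log2 ratio 2.70), 17.2-fold and 8.19-fold higher for Ier5l (chip types C and B), and 1.85-fold higher for Ier3, which is short of the size rule. Of 5697 genes measured, 8.67% rose. Further above mock than Ier5l lay 9 other genes on its chip type C value and 32 on its B value, and 55 lay further above than Ier2.

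PKCi was added to ask which levels differ when protein kinase C is inhibited. Ier2 fell 2.46-fold (log2 ratio -1.30) and Ier3 7.34-fold (log2 ratio -2.88), while Ier5l rose 11.7-fold on chip type C (log2 ratio 3.55) and 3.49-fold on B (log2 ratio 1.80). All 3 genes thus passed the size rule, where 14.3% of 5793 genes rose and 9.75% fell. The technical spread was 0.71, so the Ier2 fall was 1.82 times the spread and the Ier3 fall 4.03 times. The gap between the 2 Ier5l probe sets was 1.75 on the log2 scale, against 1.01 for the SD of such a difference.

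Against mock, the PKCi pool was 2.85-fold higher for Ier2, 9.17-fold and 2.72-fold higher for Ier5l (chip types C and B) and 1.18-fold higher for Ier3 (481 against 407), a difference of 0.39 times the spread. The share of genes that rose was 6.90% of 5667. Further above mock than Ier5l lay 5 other genes on its chip type C value and 180 on its B value.

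**Figure D2:**
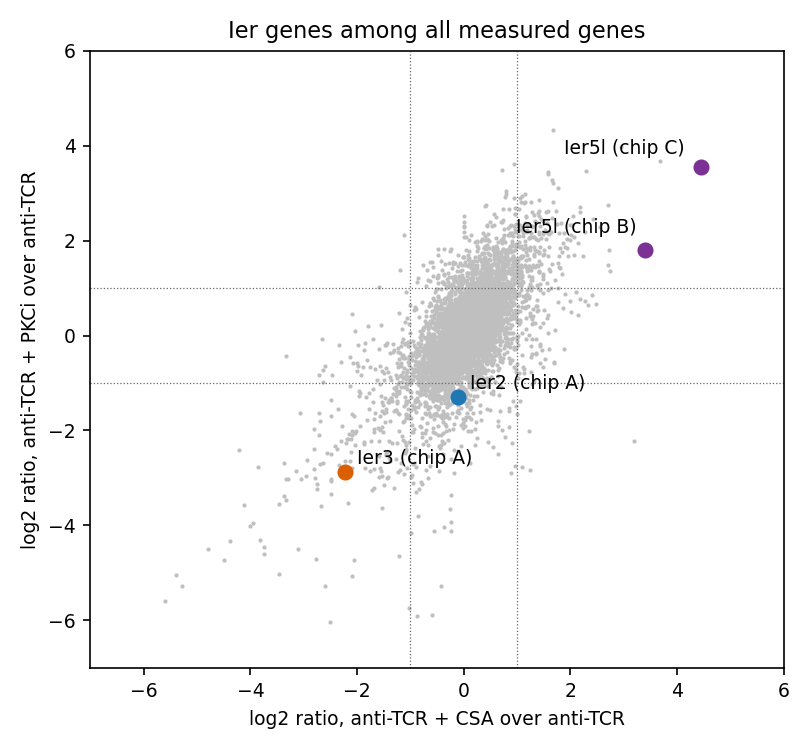
Each grey point is a gene measured in at least 1 of the comparisons, by its log2 ratio of CSA over anti-TCR alone (x axis) and of PKCi over anti-TCR alone (y axis); both axes share the anti-TCR array, coloured points are Ier probe sets and dotted lines mark 2-fold. Ier5l lies at the upper right (4.46 and 3.55 on chip type C), Ier3 at the lower left (-2.23 and -2.88) and Ier2 below the centre (-0.11 and -1.30).

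Combo was added to ask which levels differ when mTOR, MEK and p38 are inhibited at once. None of the 3 genes passed the size rule, where 13.4% of 5621 genes did. The log2 ratios were -0.81 for Ier2 (1.76-fold lower), -0.55 for Ier3 (1.47-fold lower) and, for Ier5l, 0.64 on chip type C and 0.50 on B. Against a technical spread of 0.55 they were between 0.90 and 1.47 times the spread in size. Relative to mock, Ier2 was 3.99-fold and Ier3 5.92-fold higher with Combo, and 8.39% of 5756 genes rose; Ier5l, at 1.22-fold and 1.10-fold, did not pass.

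The 3 inhibitor comparisons share the anti-TCR array, and the 4 comparisons with mock share the mock array, so an error in either array would enter several of these ratios. The inhibitor pools can also be set against each other without it. Ier5l was 14.1-fold and 7.45-fold higher with CSA than with Combo, and 7.53-fold and 2.47-fold higher with PKCi than with Combo (chip types C and B). Ier3 was 3.20-fold lower with CSA than with Combo and 5.01-fold lower with PKCi than with Combo. Ier2 was 2.27-fold higher with CSA than with PKCi and within 2-fold in the other pairs.

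The order of levels can be read step by step. For Ier2, anti-TCR and CSA differed by 0.11 on the log2 scale and Combo and PKCi by 0.48, both within 1 technical spread of those pairs, whereas CSA and Combo (0.70) and PKCi and mock (1.51) differed by more. For Ier3, anti-TCR and Combo (0.55) and PKCi and mock (0.24) lay within it, CSA and PKCi (0.65) were 1.19 times the spread apart, and Combo and CSA (1.68) were 3.38 times apart. For Ier5l, Combo, mock and anti-TCR lay within the spread of each neighbour on both probe sets, while PKCi lay above Combo by 2.91 and 1.31, and CSA above PKCi by 0.91 and 1.59 (chip types C and B).

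The share of the log2 induction that was left under an inhibitor puts Ier2 and Ier3 among the 659 genes that rose with anti-TCR. With CSA, Ier2 kept 96.0% of its induction and Ier3 28.4%, and the median of the 659 genes was 66.9%. With PKCi, Ier2 kept 53.9% and Ier3 7.74%, beside a median of 28.7%. With Combo it was 71.0% for Ier2 and 82.3% for Ier3, beside a median of 58.1%. The log2 ratios of these genes to anti-TCR differed there by 0.33 times the SD of a difference between chip types. With the probe sets of Ier3 averaged, which brings in its dark probe set, Ier3 kept 13.2% with CSA, -8.57% with PKCi and 71.8% with Combo. Ier2 therefore lay above the median of induced genes in all 3 treatments, and Ier3 below it with CSA and PKCi and above it with Combo. The 659 genes were selected on the same anti-TCR and mock arrays that enter these shares. Errors in those arrays can therefore shift the median, and more so for genes induced just over 2-fold. The size of this shift was not tested. Outside the quartiles of the 659 genes lay both genes with CSA (quartiles 36.9% and 91.8%) and Ier3 with Combo (82.3%, quartiles 35.3% and 79.3%). Ier2 with PKCi and Combo, and Ier3 with PKCi (quartiles 0% and 64.1%), lay inside them. The gaps to the median were not set against the technical spread. The mock values of both genes lie well above the floor, so their own shares do not depend on it. The shares of other induced genes can. Genes such as Fos, with mock and PKCi values both raised to the floor, have a share of 0% with PKCi, which is also the lower quartile there.

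**Figure D3:**
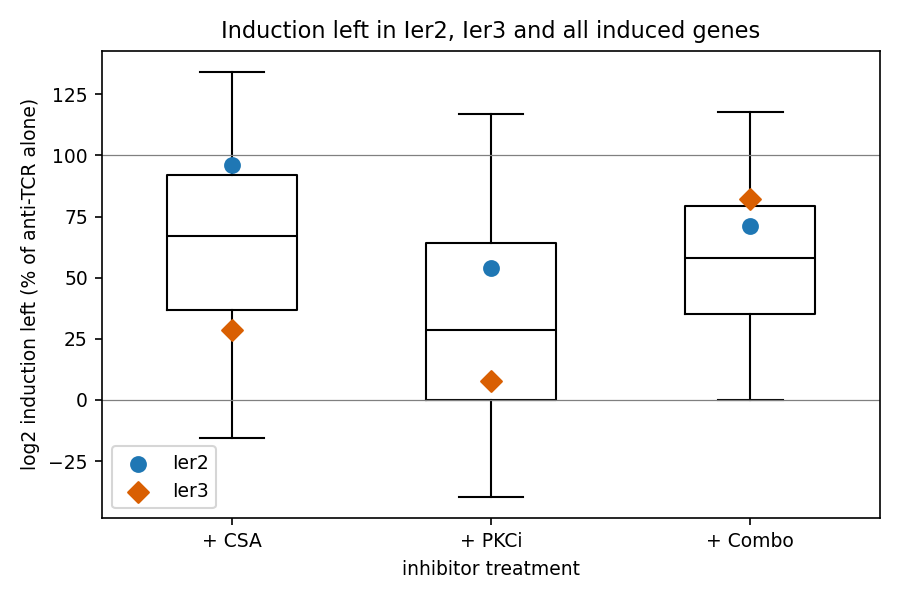
Share of the log2 induction by anti-TCR that was left with each inhibitor treatment (y axis, %), where boxes span the quartiles of the 659 induced genes with the median as a line and whiskers from the 5th to the 95th percentile. Ier2 (circles) lies at 96.0, 53.9 and 71.0% and Ier3 (diamonds) at 28.4, 7.74 and 82.3%.

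By the same size rule, Ier3 is 1 of 72 induced genes (10.9% of 659) that fell with CSA and with PKCi and not with Combo. Ier2 is 1 of 117 (17.8%) that fell with PKCi alone. For Ier2 this rests on the 2-fold limit. It was also 1.76-fold lower with Combo, and its PKCi and Combo levels lay within 1 technical spread of each other. For comparison, 89 (13.5%) fell with all 3 treatments and 234 (35.5%) with none. The genes closest to Ier3 were sought by the root mean square difference between log2 profiles over the 5 treatments, each centred on its own mean, among 6336 other genes that were bright on at least 1 array. They were Irf4 (0.22), a transcription factor of activated lymphocytes, Jarid2 (0.27, on an f-suffixed probe set, which marks shared sequence), the LIM protein gene Fhl2 (0.31), the receptor gene Notch1 (0.35) and Ndrg1 (0.37). Irf4 read 269 with mock, 2076 with anti-TCR, 367.5 with CSA, 206 with PKCi and 1391 with Combo. Like Ier3, it was high in the anti-TCR and Combo pools and low in the other 3.

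The genes closest to Ier2 lay at 0.20 to 0.22: Ece1, which encodes an endothelin-converting protease, the splicing factor gene Sfpq (s-suffixed), Yrdc (r-suffixed), the kinase gene Cdk17 and Carnmt1. Cdk17 read 258 with mock, 1586 with anti-TCR, 1965 with CSA, 1006.5 with PKCi and 1194 with Combo. It too was lowest with mock, and high with anti-TCR and CSA.

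The profiles nearest to Ier5l lay further from it by this measure. The measure grows with the size of a gene's changes. The 5 treatments spanned 22.0-fold and 10.5-fold for Ier5l (chip types C and B), 7.01-fold for Ier2 and 8.68-fold for Ier3. The distances therefore do not show that Ier5l stands apart in the shape of its profile. For its chip type C probe set the nearest profiles were those of Lmna (0.85), Ddit4 (0.92), Rgs2 (0.92), Rhoq (0.92) and 2310026I22Rik (0.93). The last was read on an i-suffixed probe set, which marks an incomplete probe design. For its chip type B probe set they were Slc46a3 (0.42), Metrnl (0.44), Rgs2 (0.50), Styk1 (0.52) and Lmna (0.54). Slc46a3 and Metrnl read below the floor of 69.5 with anti-TCR (53.8 and 63.9) and with Combo (39.5 and 17.2), and Metrnl also with mock (67.3). These values were raised to the floor, so both distances rest in part on it. Rgs2, a regulator of G protein signalling, and Lmna, the gene of lamins A and C, were in both sets of 5. Rgs2 read 707 with mock, 375 with anti-TCR, 2207 with CSA, 1835 with PKCi and 608 with Combo. Its CSA and PKCi pools were high and its anti-TCR pool was the lowest, as for Ier5l. Lmna read 81.7, 173, 1130.2, 485 and 244.5 in the same order of treatments on an s-suffixed probe set. Its other bright probe set, which is r-suffixed, read 255, 303, 227, 173 and 286, with no rise with either inhibitor.

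Ier5l was selected for values of CSA and of PKCi above both mock and anti-TCR, so the count of genes that share this is a description. Of 6337 genes bright on any array, 23 (0.363%) had both inhibitor pools at least 2-fold above mock and above anti-TCR, and for 16 (0.252%) the Combo pool was in addition 2-fold above neither. With 4-fold in place of 2-fold, 2 genes were left (0.0316%), Ier5l on its chip type C probe set and Scrt1; the chip type B probe set of Ier5l did not reach 4-fold. Scrt1, which encodes a zinc finger repressor known from neurons, read 164 with mock and with anti-TCR, 746 with CSA, 994 with PKCi and 433 with Combo. The smallest of the 4 ratios was 9.17-fold for Ier5l on chip type C but 2.72-fold on B, 4.54-fold for Scrt1 and 3.95-fold for Rhoq, which lies just under 4-fold.

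Further genes of the 23, chosen for mention after their values were seen, were Ddit4, an inhibitor of mTOR signalling, whose smallest ratio was 3.01-fold; Crem, a cyclic AMP-responsive transcription factor (2.87-fold, s-suffixed); Rgs2 (2.60-fold); and Dusp1, a MAP kinase phosphatase (2.52-fold). Of the 23, 7 had 1 further bright probe set each. On 5 of these 7 (those of Ier5l, Rhoq, Crem, Dgat1 and Smox) all 4 ratios were again at least 2-fold. For Arhgap9 all 4 were above 0 on the log2 scale, the smallest 0.30, and for Lmna all 4 were below 0.

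**Figure D4:**
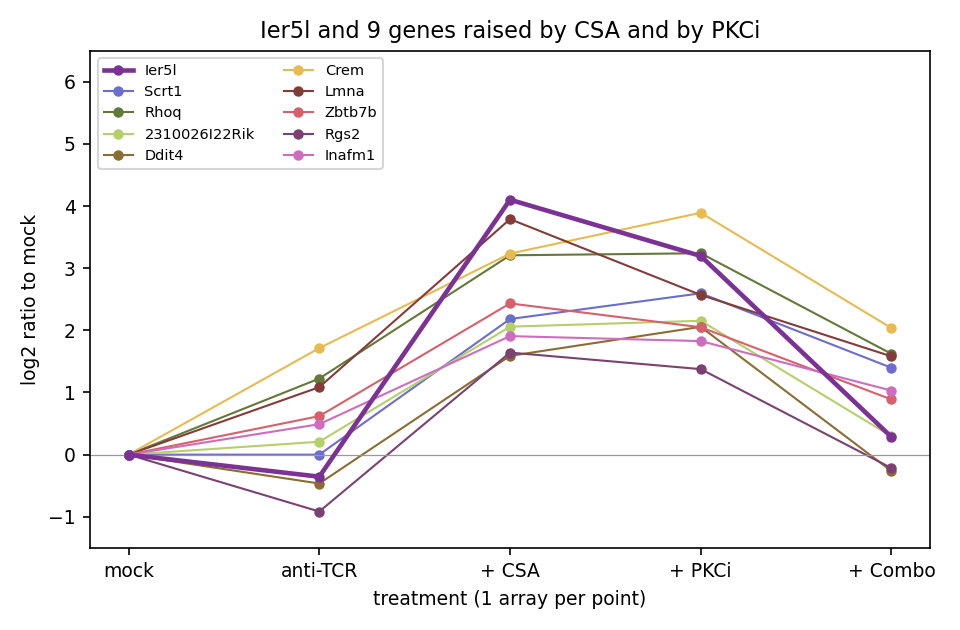
Log2 ratio to mock (y axis) under each treatment, 1 array per point, for the 10 genes with the highest smallest ratio of CSA and PKCi to mock and to anti-TCR, read on the brightest probe set of each gene. Ier5l (thick line) is at -0.36 with anti-TCR, 4.10 with CSA, 3.20 with PKCi and 0.28 with Combo.

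The Ier genes can be set beside other immediate early genes, taken as a list of 25 transcription factors and a list of 34 other genes. With anti-TCR alone 13 of 19 measured factors rose and 0 fell (of all genes 11.4% and 13.9%; median log2 ratio 2.86, against -0.08 for all genes), led by Nr4a3 (66.7-fold), an orphan nuclear receptor, and Egr2 (at least 65.1-fold), a zinc finger factor. The lowest were Klf6 (log2 ratio -0.42) and Jund (-0.30). Ier2 (2.81) and Ier3 (3.12) lie near the median of this list and Ier5l (-0.36) near its lower end. Of the other immediate early genes 11 of 22 rose and 3 fell (median 0.97), from the chemokine gene Ccl3 (at least 26.7-fold higher) and the ERK phosphatase gene Dusp6 (at least 12.4-fold higher) to Tnf (2.52-fold lower) and Plk3 (18.1-fold lower, r-suffixed).

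With CSA, 6 of 19 factors fell and 2 rose against anti-TCR alone (of all genes 5.34% and 4.84%; median -0.39, against 0.03 for all genes). Nr4a2 fell 20.8-fold and Egr2 5.71-fold, while Egr4 (r-suffixed) and Maff rose 2.24-fold and 2.13-fold. Of the other immediate early genes 6 of 23 fell and 4 rose (median 0.08). Gem, a small GTPase, fell at least 4.54-fold and Zfp36l1, an RNA-binding protein, 4.32-fold. The rises were led by Ccl4 (9.16-fold) and Tnf (6.72-fold), both smaller than that of Ier5l on either probe set. Ier5l was selected for its rise with CSA, so its place above these genes is a description. On chip type B its log2 ratio of 3.40 and that of Ccl4 (3.20) lay closer than the SD of such a difference, 0.68.

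With PKCi, 13 of 19 factors fell and 0 rose (of all genes 9.75% and 14.3%; median -1.87, against 0.03 for all genes), down to Egr2 (at least 65.1-fold) and Egr3 (60.5-fold). Jund (log2 ratio 0.45) and Egr4 (0.36, r-suffixed) were the highest. In the other list 10 of 23 fell and 6 rose (median -0.69). Ccl3 fell at least 26.7-fold and Dusp6 at least 12.4-fold, and Rgs2 and Tnfaip3, an NF-kB inhibitor, rose 4.90-fold and 2.96-fold. With Combo, 4 of 20 factors fell and 2 rose (of all genes 5.46% and 7.95%; median -0.43), with Fosb 3.42-fold lower and Csrnp1 2.78-fold lower, and Egr4 (2.05-fold, r-suffixed) and Nfil3 (2.00-fold) higher. Of the other immediate early genes 3 of 22 fell and 5 rose (median 0.03), from Gem (4.37-fold lower) and Trib1 (3.85-fold lower) to Ccl4 (10.9-fold higher) and Tnf (13.4-fold higher).

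**Figure D5:**
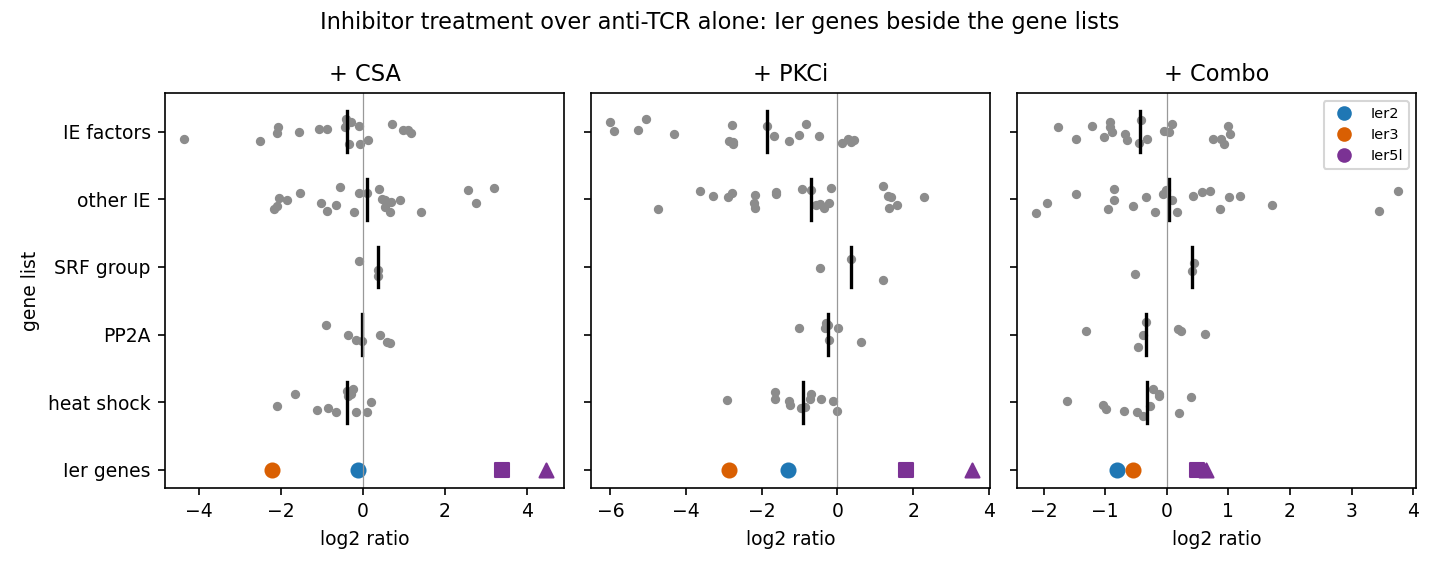
Log2 ratio to anti-TCR alone (x axis, a separate scale in each panel) with CSA, PKCi and Combo for the measured genes of 5 lists (grey points, 1 a gene; black bars are medians) and for the Ier probe sets in the bottom row; IE is immediate early and SRF is serum response factor. With CSA, Ier5l, which was selected for this rise, lies at 3.40 and 4.46, and Ccl4, the highest listed gene, at 3.20. With Combo all 4 Ier probe sets lie between -0.81 and 0.64.

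Lists of known partners of Ier products and of immediate early transcription were also read. Of 6 genes for serum response factor and its cofactors, which drive many immediate early genes, 3 were measured. Srf read 341 with mock, 589 with anti-TCR, 757 with CSA, 425 with PKCi and 413 with Combo, so that it was 2.22-fold higher with CSA than with mock and within 2-fold in the other comparisons made. Mrtfa was lower than mock with anti-TCR (3.10-fold), CSA (2.40-fold) and Combo (2.33-fold). It rose 2.30-fold with PKCi against anti-TCR, and Elk4 did not pass the size rule in any comparison made.

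Of 12 PP2A subunit genes on the arrays, 7 were measured with anti-TCR against mock. The catalytic subunit gene Ppp2ca rose 2.72-fold there and fell 2.02-fold with PKCi and 2.49-fold with Combo, and the list's medians lay between -0.33 and 0.02 in anti-TCR against mock and the 3 inhibitor comparisons. Of 14 heat shock genes on the arrays, 12 were measured. With anti-TCR 3 rose and 0 fell (of all genes 11.4% and 13.9%; median 0.52), among them Hspa1b (9.24-fold higher). Of the 12, 3 fell with CSA (of all genes 5.34%; median -0.39), 5 with PKCi (of all genes 9.75%; median -0.91) and 2 with Combo (of all genes 5.46%; median -0.33), and 0 rose in any of the 3. Hspa4l fell 4.26-fold with CSA and Hspa1b 7.50-fold with PKCi.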

How the data were processed

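The deposited tables hold 1 intensity per probe set and array; the values are linear and none is below 0. Within a chip type the 2% trimmed means differ by at most 0.242% between arrays, so the authors had scaled them; the method and the program are not given in the sources that were used. The tables hold no detection calls. Groups come from the array titles. Genes come from the platform annotation (29131 probe sets with 1 symbol, 724 with several, 6846 with none; 29044 matched RefSeq's gene table, GRCm38.p6, and 0 symbols changed). A gene is read on its probe set with the highest mean. The technical spread rests on 792 to 867 probe set pairs per comparison. Members, gene lists and the rule for naming genes were chosen with earlier results of these data known. Genes named are all members, the 2 highest and 2 lowest of a list in a comparison (not all are printed), the 5 nearest profiles, and up to 10 genes 4-fold above both references with CSA and PKCi; exceptions are marked. The calling steps were tested on simulated data, with 4-fold changes planted in bright genes and noise smaller than the technical spread. This checked that the steps ran as meant and does not give an error rate for the calls made here. RefSeq's promoter table holds 1 entry each for Ier3, Ier5 and Ier5l; Ier2 was not matched there. Alternatives were quantile normalization, median scaling, 0.5 and 2 times the floor, 8 times the floor as minimum, averaging the probe sets of a gene, and suffixed probe sets left out. Python 3.11.15, numpy 2.4.6, pandas 2.3.3, scipy 1.17.1 and matplotlib 3.10.9 were used.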

Additional observations from a re-analysis of the deposited data

How the results depend on the processing

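No paired analysis was possible because each treatment has 1 array per chip type. The 21 log2 ratios of Ier2, Ier3 and Ier5l were recomputed under 7 alternatives (147 values): none crossed 2-fold, and 2 changed sign, Ier2 with CSA against anti-TCR (0.14 with quantile normalization) and Ier3 with PKCi against mock (-0.12 with the mean of probe sets), neither of them called. Many of these values could not move. The probe sets read lie well above the floor and carry no suffix, so the settings on floor, minimum and suffix left every ratio as it was. Averaging could not move Ier2, which has 1 probe set. Only quantile normalization, median scaling and, for Ier3 and Ier5l, averaging could change a ratio. By more than the technical spread 8 values moved, all with probe sets averaged per gene, which brings in the dark Ier3 probe set and the lower Ier5l one. Ier3 then read 1.43 (anti-TCR), 0.19 (CSA) and 1.03 (Combo) against mock, and -1.24 (CSA) and -1.56 (PKCi) against anti-TCR. Ier5l read 2.32 (PKCi against mock), 3.93 (CSA against anti-TCR) and 2.68 (PKCi against anti-TCR). Counts of changed genes were 1467, 939, 592 and 829 for anti-TCR, CSA, PKCi and Combo against mock. They were 555, 1392 and 754 for CSA, PKCi and Combo against anti-TCR. They became 913, 572, 340, 494, 331, 838 and 425 with 8 times the floor as minimum. With the mean of probe sets they became 887, 545, 346, 498, 332, 843 and 408. The other 35 of 49 counts were within 1.5 times. These 35 include the counts with a lowered or raised floor, which equalled the main counts and could not differ from them. A measured gene reaches 4 times the floor, so a lower value set to any floor used stays at least 2-fold below. The same alternatives were applied after the data were seen to 203 further values, of which 6 moved by over 1.5 times (counts) or by more than the technical spread (list medians, and shares of induction left, for which the spread was taken over the gene's own induction). Within that spread, the shares left for Ier3 went from 28.4% to 13.2% (CSA), 7.74% to -8.57% (PKCi) and 82.3% to 71.8% (Combo) with the mean of probe sets. Genes with CSA and PKCi both 2-fold above mock and anti-TCR (23) became 13 with 8 times the floor as minimum and 14 with the mean of probe sets. Genes lowered by PKCi alone (117) became 77 and 73 under the same settings. The median of immediate early factors became 1.89 with 2 times the floor (anti-TCR against mock) and -2.76 without suffixed probe sets (PKCi against anti-TCR). Values near or below the floor have no order.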
